A study of Mus musculus with 2 samples.

Results

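Dendritic cells made up 101 of the 6630 barcodes in a single-cell survey of cells sorted as CD11b+Ly6G+ from Lewis lung carcinoma tumors, a gate meant for tumor-associated neutrophils. They were chosen by their own UMIs (molecules counted once by their barcode), among cells of over 500 UMIs and 200 or more genes whose mitochondrial share was below 10%. A member held at least 2 UMIs of Flt3, Xcr1, Clec9a, Ccr7, Fscn1, Siglech and Cd209a together and at least 5 UMIs of the MHC class II genes H2-Ab1, H2-Aa and Cd74. Cells with 3 or more UMIs of C1qa, C1qb and C1qc, with S100a8 and S100a9 at 1% or more of their UMIs, with any UMI of the B cell genes Cd79a, Cd79b and Ms4a1 or of the T cell genes Cd3e, Cd3d and Cd3g, or with 3 or more UMIs of Krt8, Krt18 and Rhox5 were left out. The 24 genes named in this choice describe the members and show nothing about them.

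The tumors grew under the skin of mice on a C57BL/6J background, aged 8 to 12 weeks. The mice were either Smad3-wildtype (Smad3-WT) or Smad3-deficient (Smad3-KO). Smad3-KO hosts had exon 8 of Smad3 deleted and exon 7 disrupted in every cell, while the injected carcinoma cells kept their own Smad3 in both genotypes. Each genotype was 1 library from 8 pooled tumors, so each is 1 sample, no difference between the genotypes has a replicate check, and genotype, library and sort cannot be told apart. The Smad3-WT library held 4116 barcodes and 23951400 UMIs and the Smad3-KO library 2514 barcodes and 4214290 UMIs, with a median of 1770.5 and 1199 UMIs in the 3902 and 2433 cells that passed the quality limits. All intervals below are exact 95% intervals and cover counting error only.

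Smad3 itself (chr9:63646767-63757994, minus strand, GRCm38) gave 0 UMIs in the 51 dendritic cells of Smad3-WT and 5 UMIs in the 50 of Smad3-KO, and 26 against 181 UMIs in the neutrophils of the libraries. The 5′ kit reads the start of a transcript, upstream of the deleted exon, so these counts check nothing about the genotype. Xist, the RNA that silences the inactive X chromosome, had 0 UMIs in the dendritic cells of Smad3-WT and 142 UMIs in 40 of the 50 of Smad3-KO, and the Y-linked genes Ddx3y, Kdm5d and Uty had 0 UMIs in Smad3-KO. The Y-linked Eif2s3y had 18 UMIs in 16 cells of Smad3-WT and 1 UMI in Smad3-KO. RNA of sex-linked genes therefore differed between the libraries along with genotype, and the part of sex in any difference below was not tested.

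Dendritic cells take up antigen, cut it into peptides and show it to T cells on MHC molecules, and they depend on the cytokine receptor Flt3. Conventional type 1 cells (cDC1), marked by the chemokine receptor Xcr1 and the dead-cell receptor Clec9a, are known for showing captured antigen on MHC class I to CD8 T cells, and conventional type 2 cells (cDC2), marked here by the lectin Cd209a, for showing it on MHC class II to CD4 T cells. Plasmacytoid cells (pDC), marked by Siglech, are known for type I interferon. A mature state reached from either conventional type is marked by Ccr7, the receptor that guides migration to lymph nodes, and by Fscn1, an actin-bundling protein of the dendrites.

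The 2 MHC class II promoters shown here belong to genes on which the comparison of the libraries turned, H2-Aa, which the choice of cells used, and its neighbor H2-Eb1, which it did not. They run from 250 bases before to 50 bases after the start site (RefSeq, GRCm38.p6), H2-Aa at chr17:34287774-34288073 on the minus strand and H2-Eb1 at chr17:34305617-34305916 on the plus strand, and the capitals mark CTGATTGG, the letters of the Y box of MHC class II promoters.
H2-Aa: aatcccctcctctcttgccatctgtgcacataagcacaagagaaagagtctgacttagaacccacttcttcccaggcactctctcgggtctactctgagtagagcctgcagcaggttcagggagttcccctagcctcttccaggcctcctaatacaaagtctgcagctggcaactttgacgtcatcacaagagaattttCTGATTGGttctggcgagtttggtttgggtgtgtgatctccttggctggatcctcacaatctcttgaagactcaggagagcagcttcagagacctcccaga
H2-Eb1: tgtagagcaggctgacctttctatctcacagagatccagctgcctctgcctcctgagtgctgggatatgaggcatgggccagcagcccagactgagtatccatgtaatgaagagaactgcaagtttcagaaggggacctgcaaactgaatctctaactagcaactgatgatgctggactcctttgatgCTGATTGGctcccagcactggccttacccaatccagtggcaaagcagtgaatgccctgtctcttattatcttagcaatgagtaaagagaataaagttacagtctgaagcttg
Searched on both strands, these letters stood in both promoters, starting 51 and 62 bases before the start site, and in 1346 of all 32851 promoters of the same length (4.10%). Among the MHC class II genes and helpers with a promoter in the table, 3 of 9 held them (H2-Aa, H2-Eb1 and H2-Oa). Those of H2-DMa, H2-DMb1, H2-DMb2 and H2-Ob did not. The reference mouse promoters are the same for both libraries, so they show the setting of the genes and not a difference between the mice.

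The dendritic cells were 51 of 3902 cells in Smad3-WT (1.31%, interval 0.975 to 1.71) and 50 of 2433 in Smad3-KO (2.06%, 1.53 to 2.70). They carried more UMIs than most cells of the sort, with 672, 5174 and 25536 UMIs in the lowest, median and highest cell of Smad3-WT and 823, 3557 and 13897 in those of Smad3-KO. The median share of mitochondrial UMIs was 2.11% in Smad3-WT and 3.63% in Smad3-KO. Near the marker limit, 4 Smad3-WT and 7 Smad3-KO cells held exactly 2 marker UMIs and were in, while 11 and 5 cells met every other limit with 1 marker UMI and were out. In all, 262 Smad3-WT and 47 Smad3-KO cells were kept out by the marker limit alone, and 26 and 0 by the keratin and Rhox5 limit alone. In the other direction the B cell genes alone kept out 2 and 16 cells, the T cell genes 5 and 12, and the S100a8 and S100a9 limit 5 and 16. Without the B and T cell limits the share was 1.49% (1.13 to 1.92) in Smad3-WT and 3.58% (2.87 to 4.39) in Smad3-KO.

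Genes of dendritic cells and of the gate were looked up in the members. Flt3, which the choice used, was seen in 42 of the 101 cells, and 2 genes it did not use, Itgax (CD11c) and Zbtb46, a transcription factor of conventional dendritic cells, in 31 and 23. Ly6g, the gene of the neutrophil antigen in the gate, had no UMI in the 51 cells of Smad3-WT or the 50 of Smad3-KO, and when 3 counts are allowed for, up to 5.88% and 6% of cells could hold one. This limits cells with a UMI of Ly6g, not cells that express it. Itgam, the gene of CD11b, was seen in 16 of 51 cells in Smad3-WT and in 1 of 50 in Smad3-KO. Neutrophil transcripts were present all the same, since 28 of 51 cells (54.9%) in Smad3-WT and 24 of 50 (48%) in Smad3-KO held a UMI of S100a9, S100a8, Csf3r or Il1rn. Of the barcodes, 73 occurred in both libraries, of which 1 belonged to a dendritic cell.

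Beside the C1q-rich macrophages of Smad3-WT (352 cells, median 5558 UMIs), the dendritic cells (median 5174 UMIs) had 758 genes 2-fold or more higher (9.09% of the 8339 genes with at least 20 UMIs) and 1362 lower (16.3%), and the median ratio was 0.961. The 10 genes with the highest ratio among those with at least 50 UMIs in the dendritic cells of both libraries were Ccr7, Gm13546, Flt3, Nudt17, Serpinb6b, Cacnb3, Ly6d, Cd209a, Spint2 and H2-Oa, of which Ccr7, Flt3 and Cd209a were used in the choice. Zbtb46 stood at 84.6 CPM (UMIs per 1000000 UMIs of the group) in the dendritic cells against 1.79 CPM in the macrophages (47.4-fold, 16.4 to 187), and Lyz2, the lysozyme of macrophages and monocytes, at 2191 against 13478 CPM. After each cell was thinned to 500 UMIs, 25.5% of the Smad3-WT dendritic cells and 92.3% of the macrophages still held a Lyz2 UMI, against 52.9% and 97.4% before thinning. Smad3-WT had 3 B cells, a type that should lack Lyz2, too few for a background share in that library. In the other library the share of the 459 B cells (median 1218 UMIs) was 0.871% thinned and 1.74% before.

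Grouped by the marker with the most UMIs, the 101 cells split into 37 Ccr7 and Fscn1 cells, 29 Cd209a cells, 18 Xcr1 and Clec9a cells and 14 Siglech cells, with 2 cells that held only Flt3 and 1 tie. The libraries had different mixtures. Cd209a cells were 23 of 51 in Smad3-WT (45.1%, 31.1 to 59.7) and 6 of 50 in Smad3-KO (12%, 4.53 to 24.3), and Siglech cells 2 of 51 (3.92%, 0.478 to 13.5) and 12 of 50 (24%, 13.1 to 38.2). The intervals did not overlap for the Cd209a cells and overlapped between 13.1% and 13.5% for the Siglech cells. Over all cells that passed the quality limits this was the other way round. Cd209a cells were 0.589% (0.374 to 0.883) and 0.247% (0.0906 to 0.536), with overlap. Siglech cells were 0.0513% (0.00621 to 0.185) and 0.493% (0.255 to 0.860), without. In dendritic cells thinned to 500 UMIs the Cd209a cells were 21.6% (11.3 to 35.3) and 10% (3.33 to 21.8), whose intervals overlapped. Xcr1 and Clec9a cells were 6 of 51 (11.8%, 4.44 to 23.9) and 12 of 50 (24%, 13.1 to 38.2), and Ccr7 and Fscn1 cells 18 of 51 (35.3%, 22.4 to 49.9) and 19 of 50 (38%, 24.7 to 52.8), with wide overlap in both. Some cells held markers of more than 1 group. Siglech and Cd209a were seen together in 1 of the 24 Cd209a-positive cells of Smad3-WT and in 7 of the 12 of Smad3-KO. Xcr1 or Clec9a was seen with Ccr7 or Fscn1 in 3 Smad3-WT cells and with Siglech and with Cd209a in 2 Smad3-KO cells each. Ccr7 or Fscn1 was seen with Siglech and with Cd209a in 1 Smad3-KO cell each.

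**Figure D1:**
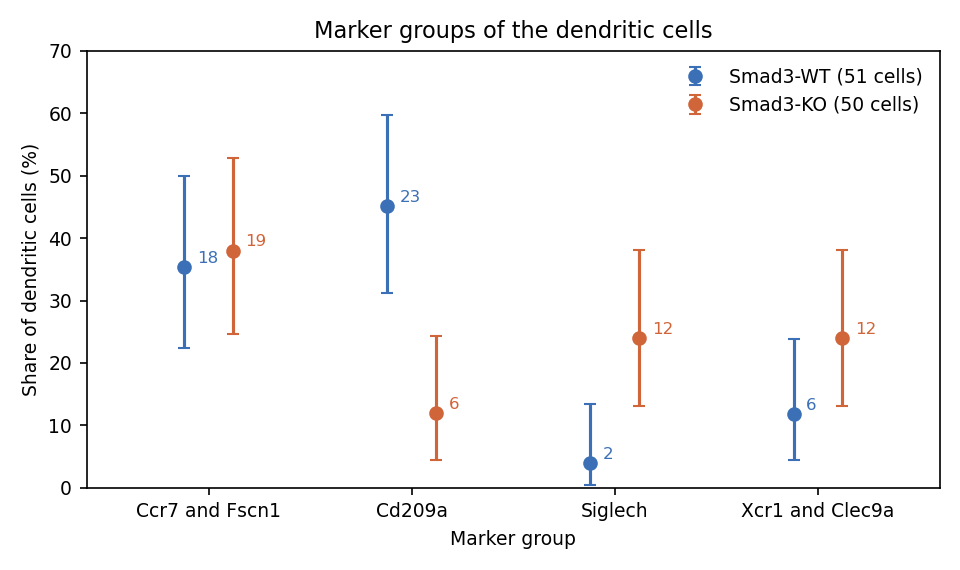
Share of dendritic cells in each marker group (y axis, percent of the dendritic cells of a library) for Smad3-WT (51 cells, blue) and Smad3-KO (50 cells, orange), with exact 95% intervals as bars and the number of cells beside each point. The Cd209a group is 45.1% in Smad3-WT and 12% in Smad3-KO, the Siglech group 3.92% and 24%, and the Ccr7 and Fscn1 group 35.3% and 38%.

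Most marker genes that played no part in the choice were highest in the group of their kind. The share of all genes that were highest in each group is not given, so these counts have no background. Of the marker lists, 9 of 9 pDC genes with at least 20 UMIs had their highest CPM in the Siglech group, 24 of 25 mature genes in the Ccr7 and Fscn1 group (all but Ccl17), 5 of 7 cDC2 genes in the Cd209a group (not Cd209d and Ltb) and 7 of 10 cDC1 genes in the Xcr1 and Clec9a group (not Cadm1, Batf3 and Irf8). Summed over the marker genes outside the choice, the mature list ran to 21267 CPM in the Ccr7 and Fscn1 cells of Smad3-WT and 35503 CPM in those of Smad3-KO, against at most 2969 CPM in any other group of either library, and the cells ranged from 8 to 471 UMIs of it in Smad3-WT and from 4 to 431 in Smad3-KO. The pDC list ran to 15406 CPM in the 12 Siglech cells of Smad3-KO and 6812 CPM in the 2 of Smad3-WT, against at most 3412 CPM in any other group of either library. Those 2 cells held 40 and 49 UMIs of the list, and they had 2804 and 10261 UMIs in all, the cell of 10261 with 51 UMIs of S100a8 and S100a9. The 3412 CPM (54 UMIs) belonged to the 6 Cd209a cells of Smad3-KO, whose cDC2 list was no higher, at 3222 CPM (51 UMIs). In the 23 Cd209a cells of Smad3-WT the pDC list stood at 766 CPM and the cDC2 list at 2593 CPM. In the Xcr1 and Clec9a cells the cDC1 list stood at 5657 CPM in Smad3-WT and 5347 CPM in Smad3-KO, and at most at 2812 CPM in any other group. All cells were grouped on genes of their own, so these counts describe the groups and test nothing.

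Within the Ccr7 and Fscn1 group the leading genes were Ccl5, a chemokine that draws T cells, Cacnb3, a calcium channel subunit, Zmynd15, Nudt17 and H2-M2, a nonclassical MHC class I gene, beside Ccr7 and Fscn1 themselves. Ccl5 had 2405 UMIs in 31 of the 37 cells and 1 UMI in the other 64 cells. Saa3, Tnc and Mt2 were also among the 10 highest of the group, but all 92 Tnc UMIs came from 1 cell, the 363 Saa3 UMIs from 2 and 55.6% of the 72 Mt2 UMIs from 1. The group was named by genes that mature dendritic cells share, so its name does not say from which conventional type a cell came. Some of its cells held such markers, Clec9a in 3 Smad3-WT cells and Cd209a in 1 Smad3-KO cell. A Smad3-WT cell held 30 UMIs of cDC1 genes outside the choice, against a median of 2.5. The origin of the cells was not tested. In the 29 Cd209a cells the 10 highest genes were Mgl2 (87.1-fold over the other dendritic cells), Cd209a, Dab2, Ms4a6d, Ifitm6, Clec10a, Cfp, Clec4n, Cd300a and Pid1. Mgl2 and Clec10a are lectins of cDC2, while Ms4a6d, Ifitm6 and Clec4n are also made by monocytes.

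The smaller groups had high levels of genes of their kind, beside others. Siglech cells had 1761 CPM of Cox6a2 and 2984 CPM of Ly6d, against 31.8 and 61.3 CPM in the rest, and 1093 CPM of Tcf4, the transcription factor that sets pDC identity, against 93.1 CPM. Xcr1 and Clec9a cells had 1109 CPM of Naaa and 527 CPM of Wdfy4, a gene needed for cross-presentation, against 153 and 67.3 CPM. The 10 highest genes of the Siglech cells also held the neutrophil gene Lcn2, with 100 UMIs in 6 cells, and Fstl1, with all 37 UMIs in 1 cell. Those of the Xcr1 and Clec9a cells held H2afx, Hist1h2ap and Hmgb2, chromatin genes of dividing cells, and C3, each with between 36.2% and 86.7% of its UMIs in 1 cell. Irf8, the transcription factor that both cDC1 and pDC need, stood at 1201 CPM in the Xcr1 and Clec9a cells of Smad3-WT and 1361 CPM in those of Smad3-KO, and at 2323 CPM in the Siglech cells of Smad3-KO. Some Xcr1 and Clec9a cells were cycling by their RNA, with up to 49 UMIs of 20 cell cycle genes in a Smad3-WT cell and up to 68 in a Smad3-KO cell, while the median cell of the group held 2.5 and 1.

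**Figure D2:**
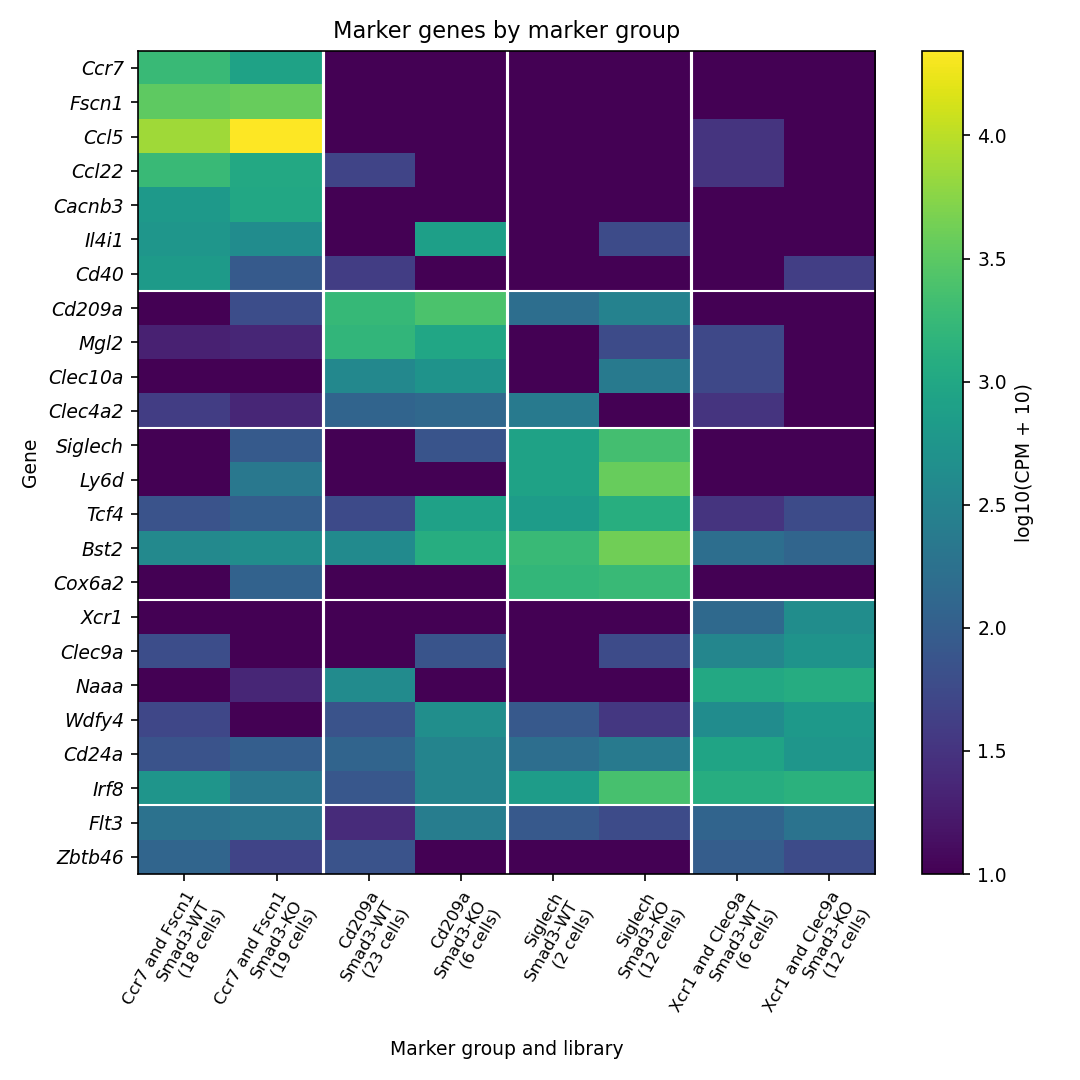
Level of 24 marker genes (rows) in the 4 marker groups of each library (columns, with the number of cells), as log10 of CPM with 10 CPM added, yellow for the highest levels. White lines divide the groups and the mature, Cd209a, Siglech, Xcr1 and Clec9a, and shared genes. Ccl5 reaches 7315 CPM in the Ccr7 and Fscn1 cells of Smad3-WT and 22066 CPM in those of Smad3-KO.

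The libraries were then compared over all dendritic cells, by UMIs summed over the cells of a library. Of the 3372 genes with at least 20 UMIs, 390 stood 2-fold or more higher in Smad3-KO (11.6%) and 366 lower (10.9%), with 0.5 UMIs added, and the median ratio was 1.01. These counts are the background for the gene lists that follow, and since the mixture of marker groups differed, fewer cells of a group and less RNA per cell cannot be told apart in them. Leading the Smad3-KO side, Col1a1, Col1a2, Saa3, Sparc, Col3a1, Dcn, Tnc, Fstl1 and Serping1 were, with Xist, the 10 highest genes with at least 50 UMIs. Their UMIs came from few cells, since 4 Smad3-KO cells and no Smad3-WT cell held 20 or more UMIs of Col1a1, Col1a2, Col3a1, Dcn and Sparc, matrix genes of fibroblasts. One of the 4, with 13897 UMIs in all, held 1836 of the 2480 matrix UMIs (74.0%) in the Smad3-KO dendritic cells. It also held 82 MHC class II UMIs, 3 UMIs of Fscn1 and none of Ptprc (CD45), which was seen in 57 of the 101 dendritic cells. The other 3 held 471, 141 and 27 matrix UMIs and 0, 1 and 3 UMIs of Ptprc. The cell of 27 matrix UMIs also held 6 UMIs of Xcr1, 2 of Clec9a and 264 of MHC class II genes. Summed over 6 fibroblast markers, of which 5 of 5 with at least 20 UMIs were higher in Smad3-KO, the libraries held 2 and 2486 UMIs, with Col1a1 the most abundant in Smad3-KO and all but Col3a1 at 0 in Smad3-WT.

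Without these 4 cells, 315 of 3117 genes stood 2-fold or more higher in Smad3-KO (10.1%) and 361 lower (11.6%). Genes whose excess in Smad3-KO rested on them included the chemokine Ccl2, which had 77 UMIs in 10 cells of Smad3-WT and 112 in 4 cells of Smad3-KO, 92.9% of them in 1 cell, the chemokines Ccl7 and Cxcl10, the lipid carrier Apoe and the matrix gene Fn1. The ratio of Ccl2 was 2.16 (1.60 to 2.92) with these cells and 0.0231 (0.000577 to 0.132) without them, when 1 UMI remained. A cell of Smad3-WT stood out in the other direction, with 25536 UMIs, 2 UMIs of Fscn1, none of Ccr7 and 6 MHC class II UMIs, and was kept.

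The MHC class II genes divided. H2-Eb1, the beta chain of I-E, a molecule whose alpha chain C57BL/6 mice are known to lack, had 1510 UMIs in 43 of 51 cells in Smad3-WT and 12 UMIs in 10 of 50 cells in Smad3-KO. A Smad3-WT cell held between 0 and 91 UMIs, with a median of 26, whereas no Smad3-KO cell held more than 2. At 5113 CPM (4858 to 5377) against 60.3 CPM (31.2 to 105) the ratio of Smad3-KO to Smad3-WT was 0.0118 (0.00608 to 0.0207), and with 0.5 UMIs added it was the lowest of the genes with at least 50 UMIs. The 2 libraries overlapped only among cells with 2 or fewer UMIs.

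H2-Eb1 lay at chr17:34305867-34316674 on the plus strand of GRCm38, next to H2-Aa (chr17:34282744-34287823, minus strand) and H2-Ab1 (chr17:34257689-34269419, plus strand). Of these neighbors, H2-Aa was higher in Smad3-KO and H2-Ab1 was lower by far less than H2-Eb1. H2-Aa, the alpha chain of I-A, had 2113 UMIs in 48 cells of Smad3-WT and 2128 in 47 cells of Smad3-KO, and its ratio was 1.49 (1.41 to 1.59). H2-Ab1, the beta chain of I-A, had 1157 UMIs and 588 UMIs, a ratio of 0.754 (0.682 to 0.834). Cd74, the invariant chain that guards the groove, had 5805 and 2528 UMIs. The choice of cells required the sum of these 3 genes, so their levels are a description. Of the 8 other MHC class II genes and helpers with at least 20 UMIs, 0 stood 2-fold higher and 2 lower in Smad3-KO, and the median ratio was 0.616. The other low gene was H2-DMb1, a subunit of the peptide exchanger H2-M, at 599 CPM in Smad3-WT and 191 in Smad3-KO, a ratio of 0.319 (0.218 to 0.455), while its partner H2-DMa had a ratio of 0.540 (0.409 to 0.707). Ciita, the master regulator of the class, had 36 UMIs in 19 cells and 16 UMIs in 11 cells, a ratio of 0.660 (0.342 to 1.22) whose interval held 1.

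**Figure D3:**
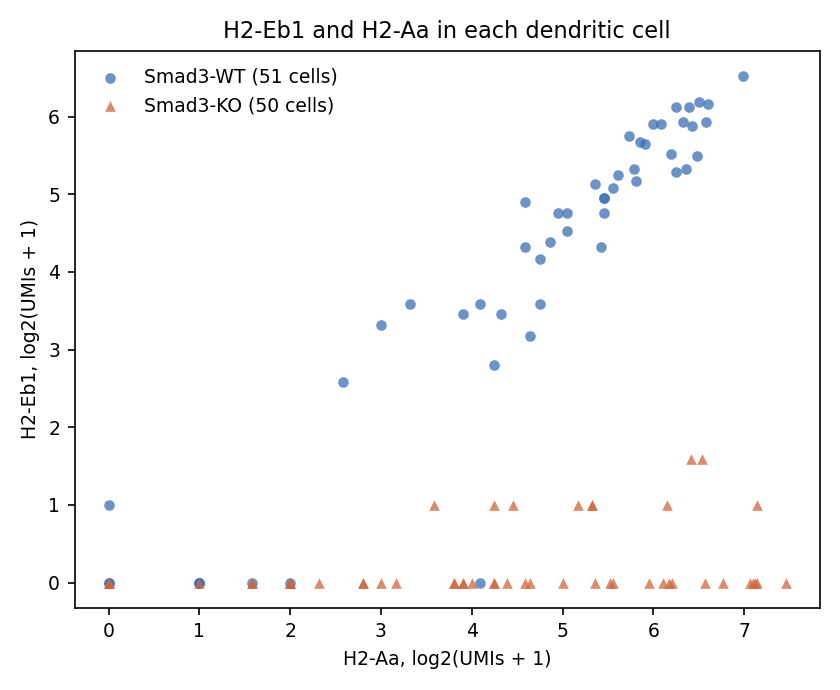
UMIs of H2-Eb1 (y axis) against H2-Aa (x axis) in each dendritic cell, both as log2 of UMIs with 1 added, for 51 Smad3-WT cells (blue circles) and 50 Smad3-KO cells (orange triangles). Smad3-WT cells reach 91 UMIs of H2-Eb1, and the Smad3-KO cells lie at 0 to 2 UMIs over the whole range of H2-Aa.

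The low level of H2-Eb1 was seen in each marker group of Smad3-KO and was not limited to dendritic cells. It had 954 UMIs in the 23 Cd209a cells of Smad3-WT and 2 UMIs in the 6 of Smad3-KO. Xcr1 and Clec9a cells held 253 UMIs in 6 cells and 4 UMIs in 12, and Ccr7 and Fscn1 cells 238 UMIs in 18 and 3 UMIs in 19. The 2 Siglech cells of Smad3-WT held 9 UMIs and the 12 of Smad3-KO 3 UMIs. All 9 came from 1 cell, of 10261 UMIs with 51 of S100a8 and S100a9, and the other held 0. In macrophages H2-Eb1 stood at 2003 CPM in the 352 cells of Smad3-WT and 291 CPM in the 23 of Smad3-KO, and in monocytes (cells with Ly6c2 or Ccr2 and little C1q) at 1200 CPM in 424 cells and 186 CPM in 23. H2-Aa went the other way there, at 2647 and 9180 CPM in macrophages and 1675 and 8169 CPM in monocytes. Neutrophils held 46.9 and 14.1 CPM of H2-Eb1, but they were chosen with under 5 UMIs of H2-Ab1, H2-Aa and Cd74 together, so a low level of the class in them was set by that choice. In cells thinned to 500 UMIs, H2-Eb1 was seen in 68.6% of dendritic cells of Smad3-WT and 2% of Smad3-KO, and H2-Aa in 84.3% and 80%. The share with H2-Eb1 was 2.45% and 0.816% in the thinned neutrophils, whose median depth before thinning was 759 and 1048 UMIs, and 84.3% and 20% of the dendritic cells held it before thinning.

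**Figure D4:**
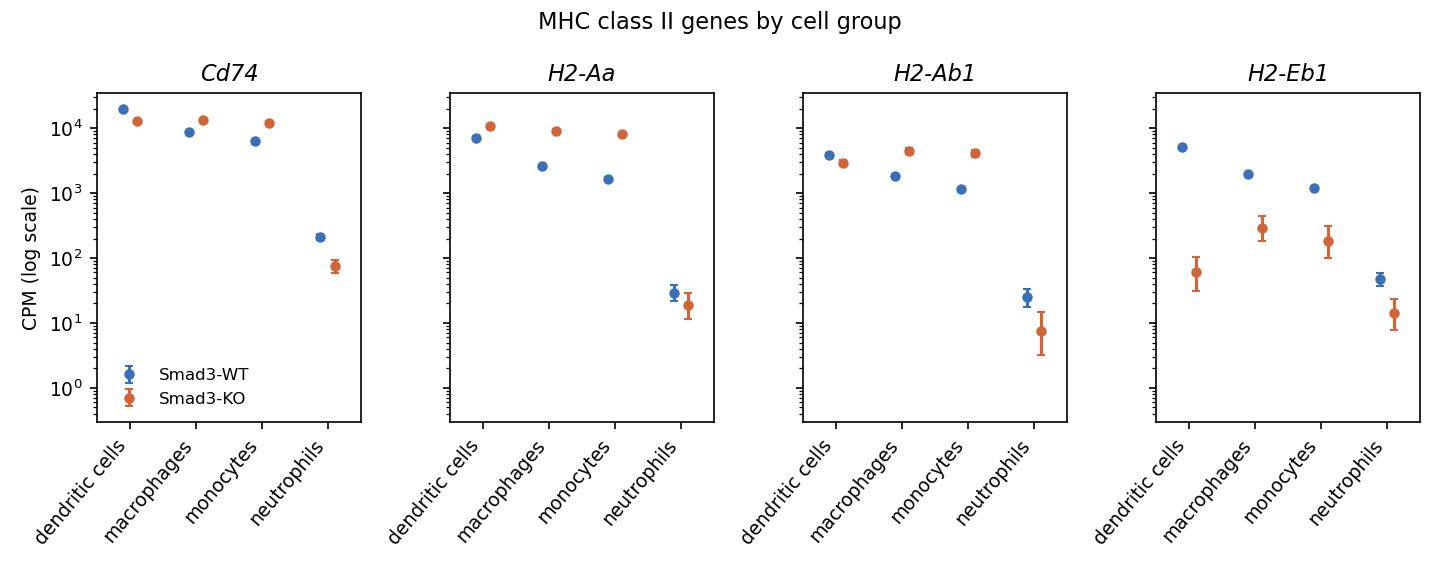
CPM of 4 MHC class II genes (y axis, log scale) in dendritic cells, macrophages, monocytes and neutrophils of Smad3-WT (blue) and Smad3-KO (orange), with exact Poisson 95% intervals as bars. Cd74, H2-Aa and H2-Ab1 of Smad3-KO lie above Smad3-WT in macrophages and monocytes, and H2-Eb1 lies below Smad3-WT in all 4 cell groups, at 5113 and 60.3 CPM in dendritic cells.

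H2-K1, H2-D1 and B2m of MHC class I stood 2-fold or more higher in the Smad3-KO dendritic cells. H2-K1 and H2-D1, the heavy chains, had 1199 and 1754 CPM in Smad3-WT and 3141 and 4242 CPM in Smad3-KO, ratios of 2.62 (2.30 to 2.99) and 2.42 (2.17 to 2.70), and B2m, their light chain, 1615 and 3352 CPM, a ratio of 2.08 (1.84 to 2.34). B2m was found in 50 of 51 cells and 50 of 50. These were the 3 of 14 genes of the MHC class I list past 2-fold, all higher in Smad3-KO, with a median of 1.38 over the list. B2m stood under 2-fold in 4 of the alternatives, with 1.82 under median-of-ratios scaling, 1.69 on cells thinned to 500 UMIs, 1.88 as a mean over cells and 1.97 without cells of 20000 UMIs and more. Tap1, which carries peptides into the endoplasmic reticulum, had a ratio of 0.998 (0.655 to 1.51), and Psmb8, an immunoproteasome subunit, 0.944 (0.784 to 1.13). As with H2-Aa, H2-K1 was also higher in other cells of the Smad3-KO library, at 745 and 1988 CPM in neutrophils and 1162 and 2371 CPM in macrophages.

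The lineage lists were counted over all dendritic cells, so they carry the difference in the mixture of groups. Outside the genes of the choice, 8 of 9 pDC genes stood higher in Smad3-KO (0 stood lower), and their median ratio was 9.07. In the Ccr7 and Fscn1 group alone, 2 pDC genes had 20 UMIs, of which 0 were higher and 1 was lower. Ly6d, a surface protein of pDC and lymphoid precursors, had 11 UMIs in 2 cells and 177 UMIs in 14 cells (23.9-fold, 13 to 48.7), Bst2, an interferon-induced antiviral protein, 117 and 251 UMIs (3.18-fold, 2.55 to 4.0), and Tcf4 22 and 78 UMIs (5.26-fold, 3.24 to 8.87). Of 10 cDC1 genes outside the choice, 3 were higher and 0 lower (median 1.18), among them Cadm1, an adhesion protein, with 2 and 28 UMIs (20.8-fold, 5.24 to 180), which stood at 21.8 CPM (1 UMI) and 272 CPM (17 UMIs) within the Xcr1 and Clec9a group. Batf3, the transcription factor of cDC1, had 33 and 26 UMIs, a ratio of 1.17 (0.672 to 2.02). Of 7 cDC2 genes outside the choice, 3 were lower (Clec4a2, Itgam and Mgl2) and 2 higher (Cd209d and Ltb), with a median of 0.536. Mgl2 had 205 UMIs in 22 cells and 18 UMIs in 5 cells (0.130, 0.0757 to 0.211). Of 10 general lineage genes of conventional dendritic cells outside the choice, Ikzf1 and Bcl11a were higher and Zbtb46 and Plet1 lower, with a median of 0.997.

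**Figure D5:**
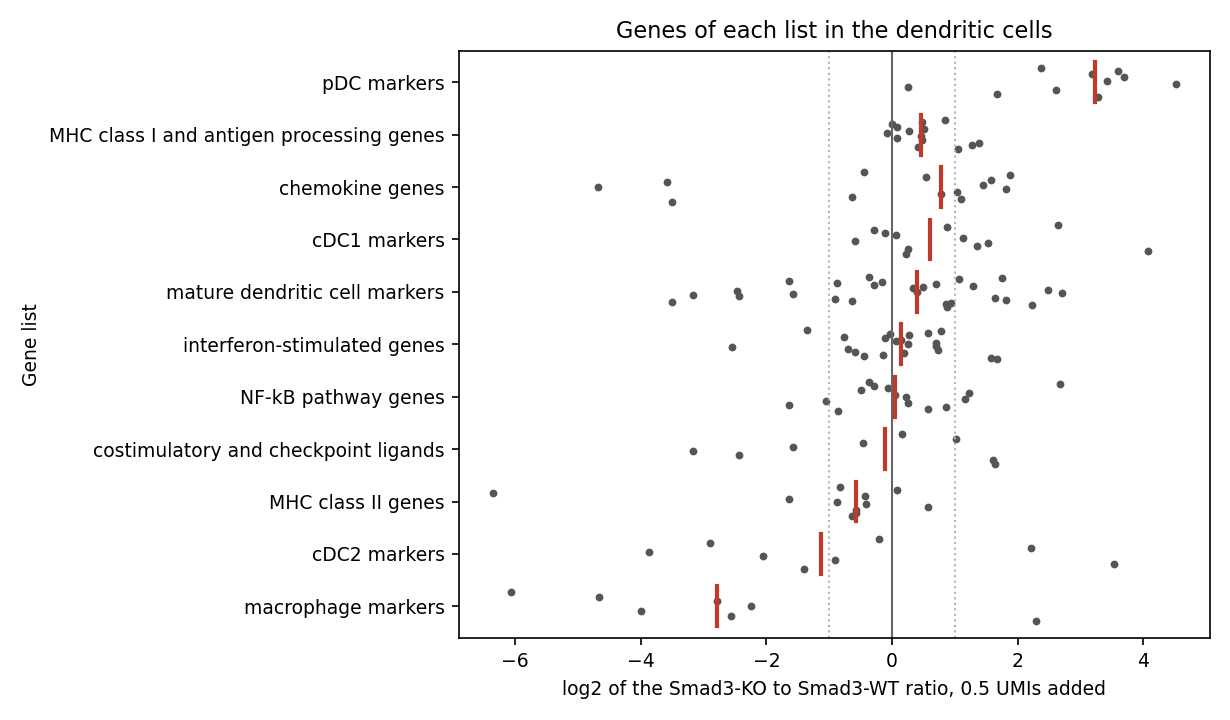
Smad3-KO to Smad3-WT ratio of each gene with at least 20 UMIs in 11 gene lists (rows), on a log2 scale with 0.5 UMIs added; points are genes, red bars list medians and dotted lines a 2-fold difference. The pDC list, here with Siglech of the choice, has a median ratio of 9.40, the macrophage list 0.146, and H2-Eb1 is the lowest point of the MHC class II list.

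The Ccr7 and Fscn1 cells were the group with like numbers in both libraries, 18 and 19, or 18 and 17 without the cells rich in matrix UMIs, and were compared on their own, a choice made after the data were seen. In this comparison 133 of 983 genes stood 2-fold or more higher in Smad3-KO (13.5%) and 159 lower (16.2%). Ccl5 had a lowest, median and highest value of 0, 18 and 129 UMIs in the 18 Smad3-WT cells and of 0, 41 and 332 in the 19 Smad3-KO cells. The ranges overlapped, and at 7315 and 29271 CPM without the matrix-rich cells the ratio was 4.0 (3.66 to 4.37). The Smad3-WT cell of 25536 UMIs, which held 26.2% of the UMIs of the 18 cells and none of Ccl5, lowered the Smad3-WT levels. Without it Ccl5 stood at 9917 CPM and the ratio was 2.95 (2.70 to 3.23). With that cell kept, Ccl22, a chemokine for regulatory T cells, had 177 UMIs in 15 cells and 79 UMIs in 13 cells, a ratio of 0.752 (0.569 to 0.985). Of the 177 in Smad3-WT, 65 came from 1 cell. Ccl17, which shares its receptor, had 41 UMIs in 6 cells and 8 UMIs in 4 cells, a ratio of 0.329 (0.133 to 0.710). Leaving out the cell of 25536 UMIs gave 0.554 (0.420 to 0.727) for Ccl22 and 0.242 (0.0981 to 0.524) for Ccl17. With the cell kept, Ccr7 had a ratio of 0.605 (0.448 to 0.810) and Fscn1 of 1.48 (1.25 to 1.74), both values of the choice itself. Without the Smad3-WT cell of 25536 UMIs the ratios were 0.447 (0.330 to 0.597) and 1.10 (0.930 to 1.29). Without that cell 73 of 886 genes stood 2-fold or more higher and 142 lower. The ratios that follow are with it.

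Of 7 costimulatory and checkpoint genes with at least 20 UMIs in these cells, 4 stood 2-fold or more lower in Smad3-KO and 2 higher. Cd40, which receives help from T cells, had 64 UMIs in 10 of 18 cells of Smad3-WT, 30 of them in 1 cell. Smad3-KO had 6 UMIs in 3 of 17 cells, a ratio of 0.158 (0.0559 to 0.363). Cd80, a ligand of CD28, had 19 and 2 UMIs (0.177, 0.0200 to 0.735), Cd83, a maturation marker, 72 and 12 UMIs (0.281, 0.139 to 0.521), and Il12b, the shared subunit of interleukins 12 and 23, 20 and 2 UMIs (0.168, 0.0191 to 0.693). Cd86, the other ligand of CD28, had 17 and 3 UMIs, with an interval (0.0558 to 1.03) that held 1. Cd200, an inhibitory ligand and 1 of the 2 higher genes, had 14 and 19 UMIs (2.29-fold, 1.09 to 4.93), and 13 of the 19 came from 1 cell. Cd274 (PD-L1) had 17 and 12 UMIs, a ratio of 1.19 (0.518 to 2.64), although over all dendritic cells it stood 3.07-fold higher in Smad3-KO (1.94 to 4.96). On the Smad3-KO side were Il15ra, which presents interleukin 15, with 4 and 17 UMIs (7.16-fold, 2.33 to 29.2), Tnfrsf4 (OX40), with 12 and 28 UMIs (3.93-fold, 1.93 to 8.48), Zmynd15, with 12 UMIs in 4 cells and 82 UMIs in 12 cells (11.5-fold, 6.24 to 23.2), and H2-M2, with 0 UMIs and 55 UMIs in 13 cells, at least 30.9-fold higher when 3 UMIs are allowed over the Smad3-WT cells. B2m, H2-K1 and H2-D1 were again higher, by 2.71-fold (2.29 to 3.22), 3.05-fold (2.52 to 3.70) and 2.92-fold (2.47 to 3.45), and H2-Eb1 again lower, with a ratio of 0.0212 (0.00435 to 0.0628). Without the Smad3-WT cell of 25536 UMIs the ratio of Cd86 was 0.219 (0.0412 to 0.758), below 1, those of Cd200 and Cd274 were 1.69 (0.801 to 3.63) and 0.877 (0.382 to 1.95), with 1 in both intervals. Those of B2m, H2-K1 and H2-D1 were 2.18, 2.35 and 2.27. Zmynd15, Il15ra and Tnfrsf4 then stood at 8.49, 5.28 and 2.90, and Cd40, Cd80, Cd83 and Il12b at 0.116, 0.131, 0.207 and 0.124. Of the 95 Zmynd15 UMIs in all 37 cells of the group, 33.7% came from 1 cell.

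Over the lists in all dendritic cells, without the genes of the choice, mature genes past 2-fold were 8 higher and 6 lower of 25 (median 1.41), costimulatory and checkpoint ligands 3 and 3 of 8 (0.925), and chemokines 6 and 3 of 13 (1.72), the last falling to 3 higher and 5 lower with a median of 0.692 without the matrix-rich cells. Ccl6 and Ccl9, chemokines of myeloid cells, were among the 10 lowest genes, Ccl6 with 511 UMIs in 33 cells and 13 UMIs in 8 cells, and Ccl6 was also lower in the Smad3-KO macrophages (9876 and 2159 CPM) and neutrophils (9998 and 2133 CPM). Cytokine genes had 1 higher (Tnf) and 1 lower (Il12b) of 7 (median 0.999), chemokine receptors 0 and 3 of 4 (0.399), pattern recognition receptors 1 and 2 of 6 (0.795), NF-kB genes 3 and 2 of 15 (1.04), interferon-stimulated genes 2 and 2 of 21 (1.10), cell cycle genes 2 and 1 of 6 (1.14), and immediate early and heat shock genes 3 and 2 of 14 (1.28). Of these shares, many are near the background of 11.6% and 10.9%. In the TGF-beta and Smad list, the pathway of the deleted gene, only 5 of 24 genes reached 20 UMIs, of which 2 were higher and 1 lower (median 1.10), and without the matrix-rich cells 3 genes, of which 0 were higher and 1 lower. Interferon-stimulated genes were then 1 higher and 4 lower of 21. Tgfbi, a secreted protein named for its induction by TGF-beta, had 82 UMIs in 29 cells and 11 UMIs in 7 cells (0.199, 0.0957 to 0.375), and Tgfb1 itself 72 and 30 UMIs (0.618, 0.390 to 0.959).

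Markers of other cells moved beside these results. Summed macrophage markers stood at 3115 CPM (920 UMIs) in Smad3-WT and 935 CPM (186 UMIs) in Smad3-KO, Lyz2 the most abundant in both, with 6 of 7 genes lower and 1, Apoe, higher in Smad3-KO and C1qb, Mmp12, Ms4a7 and Spp1 at 0 there. Monocyte markers summed to 373 and 427 UMIs with Plac8 the most abundant, 2 of 5 genes higher (Fn1 and Ly6c2) and 2 lower (Ccr2 and Ms4a4c). Without the matrix-rich cells 0 of 7 macrophage genes were higher and 7 lower, and 1 of 5 monocyte genes higher and 3 lower. Pf4, Ms4a6d, Dab2, Clec4n and Ifitm6 of the 10 lowest genes were rarely or never seen in the Smad3-KO cells, at 1, 2, 3, 1 and 0 UMIs against 56, 57, 78, 74 and 55. All of these but Pf4 were also among the 10 leading genes of the Cd209a group, with 23 cells in Smad3-WT and 6 in Smad3-KO. Neutrophil markers summed to 345 and 434 UMIs, most abundant S100a8 in Smad3-WT and Lcn2 in Smad3-KO, with 3 of 6 genes outside the choice higher and 1 lower and Ly6g at 0 in both. Lcn2, an iron-binding protein of neutrophil granules, had 2 UMIs in the dendritic cells of Smad3-WT and 177 in those of Smad3-KO, and stood at 580 and 8502 CPM in the neutrophils of the libraries. B cell markers summed to 22 and 110 UMIs, Ighm the most abundant and the only 1 with 20 UMIs, with Cd79a, Cd79b, Ms4a1 and Pax5 at 0 in Smad3-KO, where 459 B cells were in the sort against 3 in Smad3-WT. T and NK cell markers summed to 19 and 12 UMIs, Il7r the most abundant, and carcinoma markers to 44 and 46 UMIs, Igfbp4 the most abundant, with 1 gene of each list at 20 UMIs and 0 past 2-fold. Without the matrix-rich cells the 1 carcinoma gene was lower, with a ratio of 0.375. The part of these cells' RNA in the differences was not tested.

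A few differences ran through other cells of the libraries as well. Gapdh, an enzyme of glycolysis, had 1282 UMIs in 49 cells of Smad3-WT and 150 UMIs in 41 of Smad3-KO, and Gm3839, which the files list as a gene of its own, 1 UMI and 182 UMIs in 35 cells, both named here after their values were seen. Gm3839 also stood at 6.09 and 2168 CPM in neutrophils and 11.2 and 835 CPM in macrophages, and Gapdh at 4172 and 2479 CPM and 6559 and 1444 CPM. Of the 1663 stretches of 50 bases in the GENCODE transcript of Gm3839, 784 (47.1%) also occur in a coding transcript of Gapdh. Reads from such stretches cannot be assigned to 1 of the genes, so both values are uncertain. Ifitm1 and Ifitm3, antiviral membrane proteins, stood at 2356 and 3606 CPM in the dendritic cells of Smad3-WT and 191 and 613 CPM in those of Smad3-KO, but at 2200 and 2043 CPM in the neutrophils of Smad3-WT and 2843 and 2321 CPM in those of Smad3-KO, where neither was lower.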

How the data were processed

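Cells sorted as CD11b+Ly6G+ were sequenced with a 5′ single-cell kit, and the authors deposited counts of UMIs per gene and barcode (Cell Ranger 3.0.2 and mm10, per the submitters' processing notes) with averages per genotype, a signal scaled to the median UMIs per cell. The deposited averages were used only to tell which barcode ending belonged to which genotype: recomputed from the counts they differed by at most 3.58e-08, and by 31.8 if the endings were exchanged. Log2 fold changes, p-values and cluster averages of the authors' comparisons were not used. There were 0 columns of per-sample values left unused.

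Cells were selected as described above, with the study's upper limit of 20000 UMIs as an alternative, and assigned to the marker group with the most UMIs. UMIs were summed per library and group and given as CPM with exact Poisson intervals, ratios with exact intervals from the binomial split of the counts, and shares with Clopper-Pearson intervals. With 1 library per genotype no test was made. A 2-fold difference, with 0.5 UMIs added, describes genes with at least 20 UMIs, and a gene at 0 was set to 3 UMIs for a bound. Other cells were macrophages (at least 3 C1q UMIs), monocytes (at least 2 UMIs of Ly6c2 and Ccr2) and neutrophils (S100a8 and S100a9 at 1% or more, under 5 MHC class II UMIs). No doublet caller was run, and the choice drops cells with B cell, T cell or keratin genes. Named genes were those of 25 lists, the 10 highest and 10 lowest ratios among genes with at least 50 UMIs, the 10 leading genes of groups with at least 20 cells and the 10 highest against macrophages. Some leading genes of the smaller Siglech group and Xcr1 and Clec9a group were named too. Members and lists were chosen with earlier results of these data known. Promoters came from RefSeq (GRCm38.p6) and gene positions from GENCODE annotation of GRCm38. Calculations used Python 3.11.15, numpy 2.4.6, scipy 1.17.1 and pandas 2.3.3 and were tested on simulated data. A few genes of the lists are not reported by name here.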

Additional observations from a re-analysis of the deposited data

How the results depend on the processing

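The share of dendritic cells stayed inside its interval under the limit of 20000 UMIs, a minimum of 3 marker UMIs, the stricter S100 and C1q limits and without the cells rich in matrix UMIs. Thinned to 500 UMIs, 0.359% of Smad3-WT and 0.863% of Smad3-KO cells met the limits, and without the limit on B and T cell genes 3.58% of Smad3-KO cells did. Marker groups made on thinned cells gave 1.96% and 10% of Xcr1 and Clec9a cells, 0% and 20% of Siglech cells and 21.6% and 10% of Cd209a cells in Smad3-WT and Smad3-KO, since fewer cells kept a marker UMI. Genes past 2-fold were 37 higher and 56 lower on thinned cells, 111 and 138 with at least 50 UMIs, 3617 and 2255 with at least 1 UMI, 158 and 172 in the Ccr7 and Fscn1 group (the only group with 10 cells in each library, so that equal weights of groups came down to it), 133 and 159 in that group without matrix-rich cells and 73 and 142 when the Smad3-WT cell of over 20000 UMIs was left out too, all with another number of genes tested. Median-of-ratios scaling took the median of all genes from 0.0113 to -0.18 on the log2 scale. It gave 290 higher and 490 lower (37.2% higher, against 51.6%). H2-Eb1, at a ratio of 0.0123 with 0.5 UMIs added, lay between 0.0108 and 0.0186 under the other alternatives and at 0.0247 in the Ccr7 and Fscn1 group without matrix-rich cells.

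Ratios were given for 115 genes, but only for those with 20 UMIs under an alternative, in 1004 pairs of gene and alternative, with 42 genes on thinned cells and 53 in the Ccr7 and Fscn1 group without matrix-rich cells. Many ratios left their reported interval without being counted as a change of direction. On thinned cells 21 left it and 21 stayed. In the Ccr7 and Fscn1 group 21 left it and 42 stayed, and in that group without matrix-rich cells 24 and 26. With C1q at 0 it was 17 and 95. A change of direction was counted only for genes that stood past the fold limit over all dendritic cells as reported. Changes of direction in genes within that limit were not counted. Among the genes past it, the direction changed in 20 pairs, of 10 genes, all under alternatives that changed the cells. At 3 marker UMIs these were Cxcl10 (0.535), Ccl2 (0.183) and Ccl7 (0.182). Without matrix-rich cells they were Cxcl10 (0.663), Ccl2 (0.0344), Ccl7 (0.0225), Apoe (0.197) and Fn1 (0.0219). In the Ccr7 and Fscn1 group they were Irf8 (0.391), Cd274 (0.979), Cxcl2 (0.300), Ccl4 (0.930) and Lyz2 (1.20), in that group without matrix-rich cells Irf8 (0.519), Cxcl2 (0.398) and Ccl7 (0.0392), and without the large Smad3-WT cell too Irf8 (0.390), Cd274 (0.887), Cxcl2 (0.294) and Ccl4 (0.911). The cause was not tested. Leaving out the matrix-rich cells, leaving out the large cell beside them and taking the Ccr7 and Fscn1 group alone were chosen after seeing the data. No paired analysis was possible because each genotype has 1 library. The 51 and 50 cells leave genes under 20 UMIs without a usable ratio.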
